A study of Homo sapiens with 6 samples.

Results

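Keratin genes and keratin pseudogenes were examined in A549 cells, a human lung adenocarcinoma cell line, after overexpression of IL17D, a cytokine of the interleukin-17 family. The members were all rows of the gene count table whose name begins with KRT and a number, and there were 204 of them among 58735 genes. They comprised 28 type I keratin genes, 26 type II keratin genes, the keratin-like gene KRT222, 147 pseudogenes and 2 antisense RNA genes. Keratin-associated protein genes were not included. RNA was sequenced from 3 libraries of A549 cells carrying a lentiviral IL17D vector (IL17D) and from 3 libraries of A549 cells carrying the empty vector (control). The vector carries the human PGK promoter, an IRES and GFP, so all 6 libraries come from transduced cells, and the IL17D reading frame is driven by the PGK promoter rather than by its own. Both groups were grown alone in serum-containing RPMI medium, without other cell types. Whether the 3 libraries of a group came from separate cultures or transductions was not given in the sources used here. The spread between them may therefore be technical. The p-values rest on that spread as edgeR estimates it, partly shared among all tested genes. For a row that varies far more than most, such as KRT87P, the p-values can be smaller than its own libraries would give.

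Keratins are the intermediate filament proteins of epithelial cells. A type I keratin (acidic) and a type II keratin (basic or neutral) pair to build each filament, and the filaments are anchored to desmosomes and hemidesmosomes, where they give an epithelium its mechanical strength. Simple epithelia make chiefly KRT8 with KRT18, joined by KRT7 and KRT19 in ducts and airways, while KRT5 with KRT14, KRT1 with KRT10 and KRT4 with KRT13 belong to stratified epithelia and KRT81 to KRT86 to the hair shaft. KRT6A, KRT16 and KRT17 are induced in stressed or inflamed skin, and interleukin-17 cytokines are known inducers of KRT16 and KRT17 in keratinocytes. Human chromosomes carry many processed pseudogenes of KRT8 and KRT18, which are copies of the spliced messenger RNAs.

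The libraries held 14319398 to 16521021 counts on genes. The labels were checked with IL17D itself (chromosome 13, 20702127 to 20723098), with counts of 24, 18 and 34 for control replicates 1, 2 and 3, against 31274, 32155 and 26772 for IL17D replicates 1, 2 and 3. Levels are given as CPM, the counts scaled to a common library total after TMM normalization. Of the 6 epithelial markers, 5 passed the filter on low counts. The summed level of the 6 was 130.3 to 140.3 CPM in control and 131.5 to 147.2 CPM in IL17D libraries. Most of that sum was CEACAM6, with 81.8 ± 3.85 CPM in control and 96.0 ± 7.14 CPM in IL17D libraries (SD, n = 3 each). EPCAM, an epithelial adhesion molecule, was low in both groups with 1.05 ± 0.374 and 0.974 ± 0.122 CPM (SD, n = 3 each). Of the 8 markers of alveolar type 2 cells, the cell type whose surfactant genes A549 is often taken to model, 1 passed the filter, the lipid transporter gene ABCA3, and the summed level was 80.8 to 88.7 CPM in control and 85.3 to 87.0 CPM in IL17D libraries. The surfactant gene SFTPA2 had no count, and SFTPA1, SFTPB, SFTPC and SFTPD had 5 counts or fewer in every library. Of the 10 markers of blood, fibroblast and endothelial cells, COL1A1 and CD14 passed the filter and PTPRC had no count, with summed levels of 23.7 to 26.5 CPM in control and 20.4 to 26.1 CPM in IL17D libraries. In bulk RNA such as this, fewer cells of a kind and less RNA per cell cannot be told apart.

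Keratin RNA was abundant and came almost wholly from 4 genes. All keratin rows together took 1.61% to 1.71% of the counts of the control libraries and 1.57% to 1.64% of the IL17D libraries. KRT8, KRT18, KRT81 and KRT7 held 96.8% to 97.5% of these keratin counts. KRT8 was the third most counted gene of the table in 5 libraries and the fifth in IL17D replicate 2. At least 1 count was found for 98 of the 204 rows, and 31 rows had a count in every library. The filter on low counts (edgeR's filterByExpr) left 20 rows for testing, which were 7 type II genes, 5 type I genes, 7 pseudogenes and KRT7-AS. A row near the filter could pass it through either group, so these 20 are the detected rows and not a sample of the family.

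**Figure D1:**
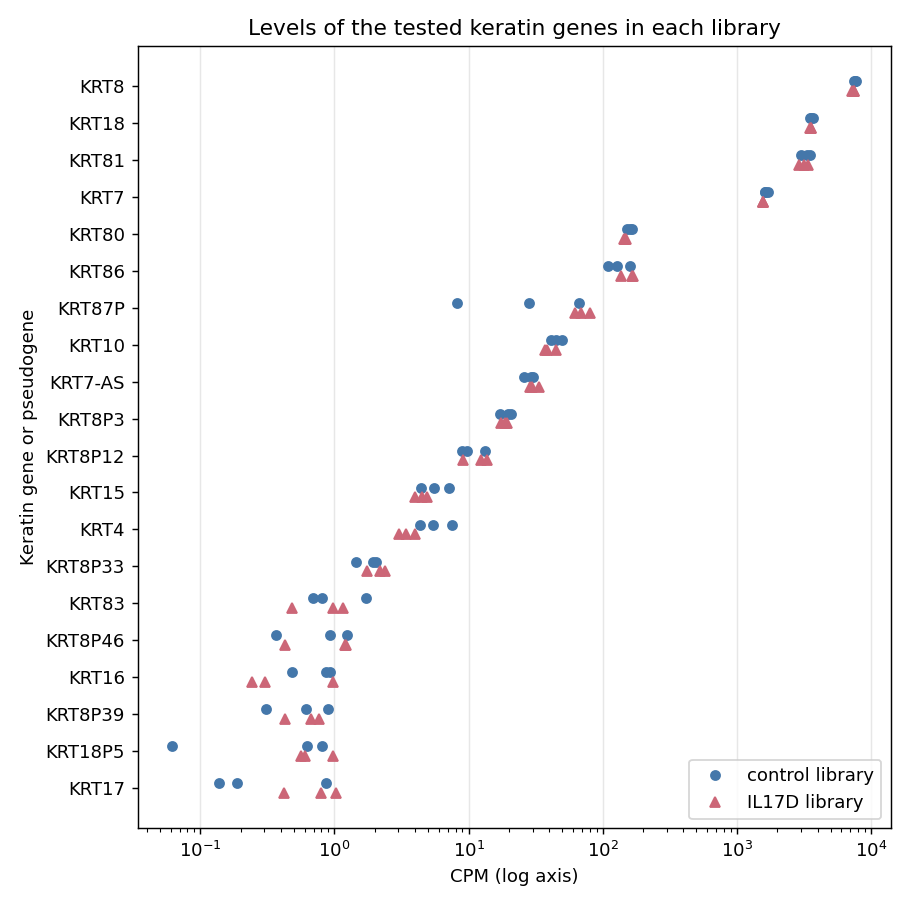
Levels of the 20 tested keratin genes and pseudogenes, as CPM on a log axis, with a circle for each of the 3 control libraries and a triangle for each of the 3 IL17D libraries. KRT8, KRT18, KRT81 and KRT7 lie above 1500 CPM, all others at or below 168 CPM, and KRT87P has its control libraries spread from 8.21 to 66.8 CPM.

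Many of these rows are near copies of each other, which bears on how reads can be assigned. The hair keratin genes KRT86, KRT81 and KRT83 and the pseudogene KRT87P lie side by side on chromosome 12, and a stretch of KRT86, KRT81 and KRT87P is printed because the largest change was found in KRT87P. The stretch is 120 bases long and was chosen by the number of positions that vary among all 4 rows. For its length it holds fewer differences of KRT81 and KRT87P from KRT86 than their whole aligned sequences do. KRT86 is printed in lower case, and a capital marks a base that differs from KRT86 (GENCODE 29, GRCh38, 5′ to 3′ along each transcript). KRT86 lies on the plus strand, and KRT81 and KRT87P on the minus strand.
KRT86: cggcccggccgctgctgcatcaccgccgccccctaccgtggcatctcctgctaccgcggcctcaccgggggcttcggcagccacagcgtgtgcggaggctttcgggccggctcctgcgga
KRT81: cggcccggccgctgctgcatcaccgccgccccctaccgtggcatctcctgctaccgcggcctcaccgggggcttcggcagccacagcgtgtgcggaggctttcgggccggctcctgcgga
KRT87P: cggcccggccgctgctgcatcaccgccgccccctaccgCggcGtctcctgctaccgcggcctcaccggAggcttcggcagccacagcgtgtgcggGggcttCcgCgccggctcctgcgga
KRT81 had 0 differences from KRT86 in this window and KRT87P had 6. Over the aligned sequences, KRT86 was 93.1% identical to KRT81, 90.3% to KRT83 and 90.8% to KRT87P. These are coding sequences, except that the whole transcript was taken for the pseudogene KRT87P. Of the 31-base stretches in its transcripts, KRT81 had 42.5% and KRT87P 17.2% in common with KRT86. KRT87P was slightly closer to KRT81, with 92.6% identity and 18.5% of its 31-base stretches in common. KRT81 was also far more abundant than KRT86, with 3277 against 132 CPM in control libraries.

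The same holds for KRT8 and its processed pseudogenes. Identity to the coding sequence of KRT8 was 97.1% for KRT8P3, 95.8% for KRT8P33, 91.7% for KRT8P46, 90.7% for KRT8P39 and 90.4% for KRT8P12. KRT8P3 had 63.4% of its 31-base stretches in common with other keratin rows, and KRT8P12 had 10.8%.

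Of the 20 tested rows, 1 rose and 1 fell in IL17D-overexpressing cells, the pseudogene KRT87P and the gene KRT4. The call was an adjusted p under 0.05 in edgeR, with adjustment over all 15754 tested genes, of which 0.673% rose, 0.908% fell and 1.58% were called in all. At an unadjusted p under 0.05 there were 7 keratin rows, 2 higher and 5 lower, against 11.6% of all tested genes, with 5.59% higher and 5.99% lower. Of the 12 tested protein-coding keratins, 10 had a log2 fold change below 0, as had 50.1% of all tested genes, and their median was -0.092 against -0.00044 over all genes. The 3 IL17D libraries all lay below the 3 control libraries for KRT8, KRT7, KRT80 and KRT4, and for 8.33% of all tested genes. None of the 20 rows had all IL17D libraries above all controls, against 7.48% of all tested genes. All rows come from the same 6 libraries and are not independent of each other. Of the 7 tested pseudogenes, 6 had a log2 fold change above 0, as had 49.9% of all tested genes.

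**Figure D2:**
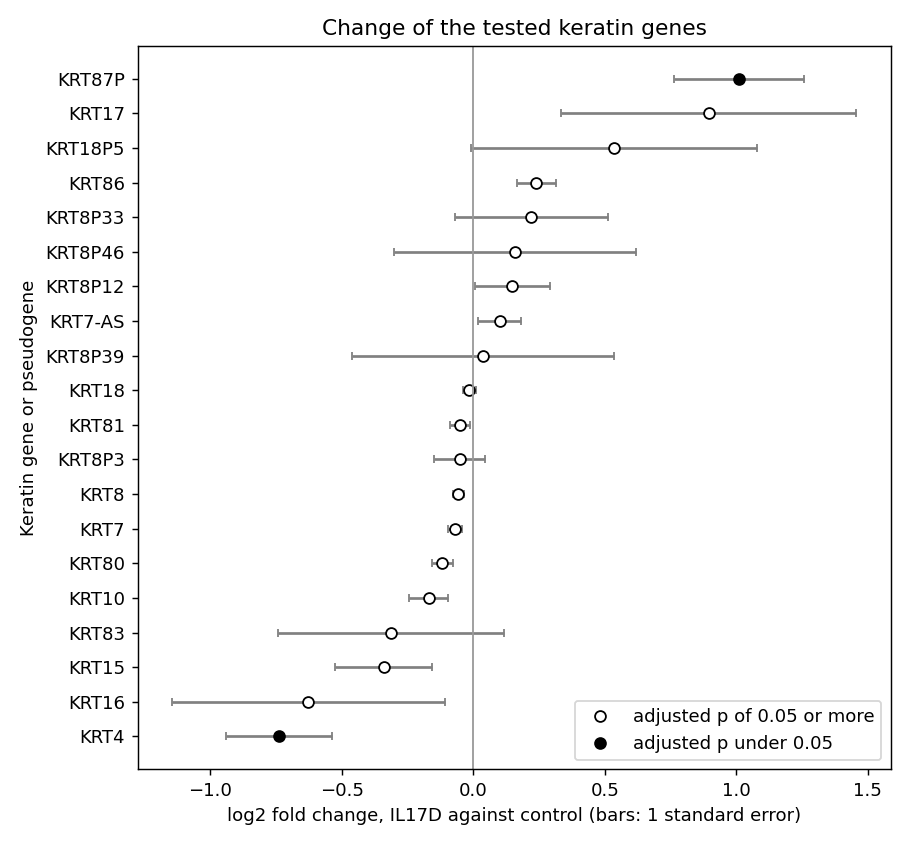
Log2 fold change of the 20 tested keratin genes and pseudogenes, IL17D against control, with bars of 1 standard error and filled circles for an adjusted p under 0.05. KRT87P at 1.01 and KRT4 at -0.74 are the filled points, and KRT8, KRT18, KRT7 and KRT81 lie between -0.07 and 0. The bars use a spread shared among genes, and those of KRT87P and KRT86 are narrower than their own libraries would give.

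Among the keratins of simple epithelia, the levels in both groups were within a few percent of each other. KRT8, the type II keratin of simple epithelia (chromosome 12, 52897187 to 52949954), had 7764, 7631 and 7505 CPM in control replicates 1, 2 and 3 and 7422, 7187 and 7420 CPM in the IL17D replicates. Every IL17D library was below every control library, by a small amount. The log2 fold change was -0.056 (standard error 0.022), equal to -3.81%, and it did not pass the test (unadjusted p = 0.014, adjusted p = 0.265, edgeR). With limma voom on the same genes its adjusted p was 0.028.

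KRT18, the type I partner of KRT8 (chromosome 12, 52948871 to 52952901), had 3710, 3496 and 3545 CPM in the control replicates and 3563, 3556 and 3527 CPM in the IL17D replicates. The IL17D libraries lay within the range of the controls. Its log2 fold change was -0.014 (standard error 0.024, adjusted p = 0.892, edgeR). The genes lie head to head, and 525 exonic bases at their 5′ ends overlap on opposite strands, which are 16.3% of the exonic bases of KRT18. Reads from there cannot be told apart where counting ignores strand.

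KRT7, a type II keratin of glandular and ductal epithelium (chromosome 12, 52232520 to 52252186), had 1701, 1623 and 1615 CPM in control and 1576, 1566 and 1570 CPM in IL17D libraries. All 3 IL17D libraries were below the controls and lay close together, with an SD of 4.76 CPM against 47.6 CPM. The log2 fold change was -0.068 (standard error 0.027, unadjusted p = 0.016, adjusted p = 0.280, edgeR). KRT7-AS, the RNA antisense to KRT7, had 28.5 ± 2.35 CPM in control and 30.6 ± 2.45 CPM (SD, n = 3 each) in IL17D libraries, and 16.7% of its exonic bases overlap those of KRT7.

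The other simple keratins were nearly absent. KRT19, the smallest type I keratin and a marker of ductal and airway epithelium, had counts of 3, 8 and 6 in the controls against 11, 6 and 3 in IL17D libraries. KRT20, a keratin of intestinal and urothelial epithelium, had counts of 16, 4 and 11 against 3, 9 and 1. Both rows were below the filter and the groups overlapped. Where a library shows no count of a row, counting error alone leaves room for up to 3 counts, which is 0.182 to 0.210 CPM.

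**Figure D3:**
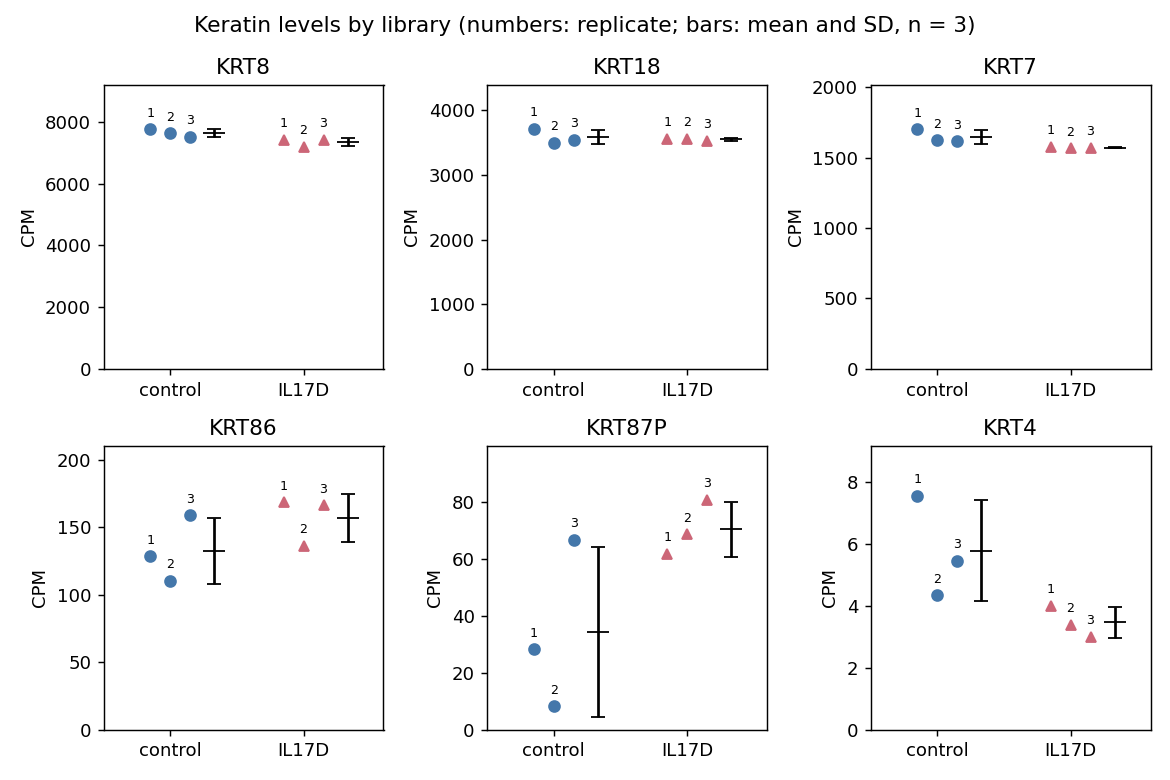
CPM of KRT8, KRT18, KRT7, KRT86, KRT87P and KRT4 in each library, on linear axes from 0, with circles for control and triangles for IL17D libraries numbered by replicate, and the mean with the SD of 3 libraries beside them. KRT8 and KRT7 sit slightly lower in all 3 IL17D libraries, KRT87P varies widely among the controls, and KRT4 is at 3.01 to 4.004 CPM in IL17D against 4.35 to 7.55 CPM in control libraries.

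The balance of type I and type II keratin RNA was compared per length, as CPM per kilobase of the gene length in the table, which equals the union of the annotated exons. On this scale the level of KRT8 was 1109 in control and 1067 in IL17D cells, and that of KRT18 was 1114 and 1103. KRT81 stood highest, with a level of 1699 CPM per kilobase in control and 1641 in IL17D cells, followed by KRT18 and KRT8, then KRT7 with 402 and 384. KRT18 and KRT8 did not differ in order beyond the spread of the libraries, since KRT8 was the higher of the pair in control replicate 2 and the lower in the other libraries. KRT18 alone made up 97.7% to 98.3% of the type I level per length, because no other type I keratin was near it. The ratio of type II to type I keratin RNA per length was 2.93, 2.99 and 2.80 in control replicates 1, 2 and 3 and 2.85, 2.70 and 2.97 in the IL17D replicates, with overlapping groups. The exon union of KRT8 is 6881 bases long and takes in many annotated transcripts, against 1929 bases for KRT81. Before division by length KRT8 was above KRT81, with 7633 against 3277 CPM in control and 7343 against 3166 CPM in IL17D cells. The order of KRT81, KRT18 and KRT8 and the ratio of the types therefore depend on the choice of length.

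The hair keratin KRT81 was among the most abundant keratins, and its neighbours KRT86 and KRT87P spread widely among the control libraries. KRT81, a type II keratin of the hair shaft (chromosome 12, 52285913 to 52291534), had 3483, 3348 and 3000 CPM in control and 3177, 2927 and 3394 CPM in IL17D libraries. The groups overlapped, and the log2 fold change was -0.050 (standard error 0.038, adjusted p = 0.687, edgeR). KRT83, another type II hair keratin, had 28, 10 and 13 counts in control and 8, 19 and 14 counts in IL17D libraries, again with overlap (log2 fold change -0.31, standard error 0.43, adjusted p = 0.863, edgeR).

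KRT86, a further type II keratin of the hair shaft (chromosome 12, 52249300 to 52309163), had 128, 110 and 159 CPM in control replicates 1, 2 and 3 and 168, 136 and 166 CPM in the IL17D replicates. Control replicate 3 lay above IL17D replicate 2, so the groups overlapped. The log2 fold change was 0.24 (standard error 0.073), with an unadjusted p of 0.0025 and an adjusted p of 0.104, which did not pass the test in edgeR. Leaving out 1 library moved the log2 fold change from 0.13 without control replicate 2 (adjusted p = 0.541) to 0.39 without control replicate 3 (adjusted p = 2.2e-05). The call was also made without IL17D replicate 2 (adjusted p = 0.0030) and was not made without any of the other 3 libraries (adjusted p = 0.301 to 0.449) or in DESeq2's Wald test (adjusted p = 0.802).

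KRT87P, a transcribed unprocessed pseudogene of the hair keratin group (chromosome 12, 52250466 to 52258867), had counts of 459, 119 and 1077 in the controls against 1019, 1132 and 1155 in IL17D libraries. In CPM these were 28.2, 8.21 and 66.8 in control and 61.8, 68.7 and 80.8 in IL17D libraries. Control replicate 3 was level with the IL17D libraries and above IL17D replicate 1, while control replicates 1 and 2 were far below. KRT87P rose from 34.4 ± 29.8 to 70.4 ± 9.60 CPM (SD, n = 3 each, log2 fold change 1.01, standard error 0.25, adjusted p = 0.022, edgeR). That standard error uses a spread shared among genes and is narrower than the control libraries of KRT87P would give. Leaving out control replicate 3 gave a log2 fold change of 1.92, and leaving out control replicate 2 gave 0.57. The call was lost without control replicate 1 (adjusted p = 0.147) and without IL17D replicate 3 (adjusted p = 0.218) in edgeR, and also in DESeq2's Wald test on all 6 libraries (adjusted p = 0.822).

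KRT87P lies within the span of KRT86 on the opposite strand, between its first and later exons, and the pair have 0 exonic bases in common. KRT87P also has 32 exonic bases in common with KRT7. Control replicate 2 had the lowest level of both KRT86 and KRT87P, and control replicate 3 the highest of the controls for both. KRT87P counts were 22.0%, 7.44% and 42.1% of KRT86 counts in control and 36.7%, 50.5% and 48.6% in IL17D libraries. KRT81 was lowest among the controls in replicate 3, where KRT87P was highest, but among the IL17D libraries both were highest in replicate 3. Counted as 1 row, KRT86 and KRT87P had 156, 119 and 226 CPM in control and 230, 205 and 247 CPM in IL17D libraries. The groups overlapped, with control replicate 3 above IL17D replicate 2 (log2 fold change 0.44, standard error 0.10, adjusted p = 0.011, edgeR). With KRT81 and KRT83 added to that row the log2 fold change was -0.021 (adjusted p = 0.892, edgeR), since KRT81 holds most of its counts. Both summed rows were chosen after the values had been seen. How far reads were exchanged among these rows was not tested.

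**Figure D4:**
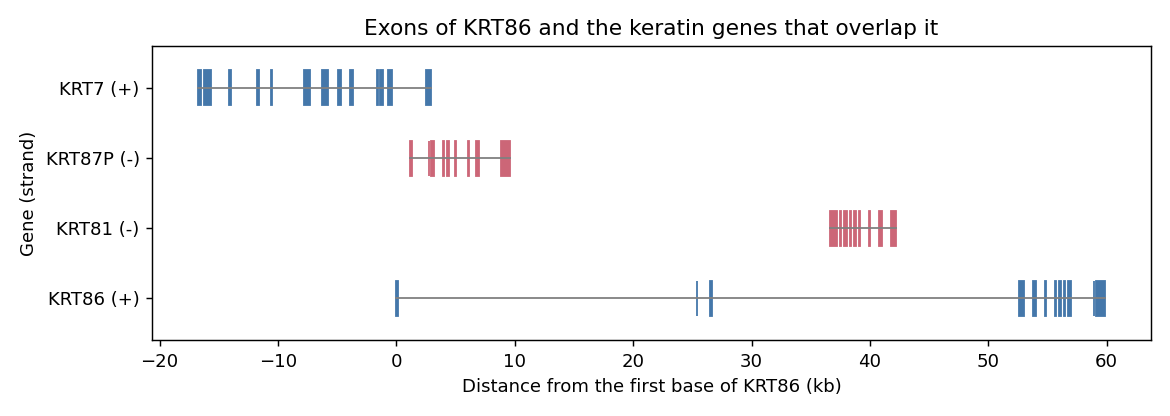
Exons of KRT86 and of the keratin genes that overlap its span, as the distance in kilobases from the first base of KRT86, with blue for the plus strand and red for the minus strand. The exons of KRT87P lie 1.17 to 9.57 kb from the start and those of KRT81 lie 36.6 to 42.2 kb from it, inside introns of KRT86.

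Among the keratins of stratified epithelia, all but KRT80 and KRT10 were at low levels, and KRT4 fell. KRT4, a type II keratin of moist stratified epithelia such as the esophagus (chromosome 12, 52806549 to 52814551), had 123, 63 and 88 counts in control and 66, 56 and 43 counts in IL17D libraries. In CPM these were 7.55, 4.35 and 5.46 in control and 4.004, 3.40 and 3.01 in IL17D libraries, so all 3 IL17D libraries lay below the controls. The mean went from 5.79 ± 1.63 to 3.47 ± 0.502 CPM (SD, n = 3 each, log2 fold change -0.74, standard error 0.20, adjusted p = 0.0496, edgeR). This is just inside the threshold. The adjusted p was 0.409 without control replicate 1, the library with the highest level, and it was 0.013 without control replicate 2. The call was also lost without each of the other 4 libraries, with adjusted p-values of 0.052 without control replicate 3 and of 0.058, 0.132 and 0.251 without IL17D replicates 1, 2 and 3. In DESeq2's Wald test the adjusted p was 0.123 and in limma voom 0.101. KRT13, the type I partner of KRT4, had 2 counts in control replicate 3 and none in the other libraries.

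KRT80, a type II keratin of several epithelia (chromosome 12, 52168996 to 52192000), had 164, 153 and 160 CPM in control and 145, 149 and 147 CPM in IL17D libraries. All IL17D libraries were below all controls (log2 fold change -0.12, standard error 0.041, unadjusted p = 0.0075, adjusted p = 0.194, edgeR). KRT10, the type I keratin of the differentiating epidermis (chromosome 17, 40818117 to 40822595), had 44.6, 49.7 and 41.3 CPM in control and 37.4, 38.6 and 44.8 CPM in IL17D libraries. The groups overlapped through IL17D replicate 3, and the log2 fold change of -0.17 (standard error 0.073) had an unadjusted p of 0.028 and an adjusted p of 0.351 in edgeR. Leaving out control replicate 2 gave -0.098, and leaving out IL17D replicate 3 gave -0.25.

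KRT15, a type I keratin of basal cells (chromosome 17, 41513743 to 41522529), had 90, 103 and 71 counts in control and 81, 66 and 64 counts in IL17D libraries. The groups overlapped, and the log2 fold change of -0.34 (standard error 0.18) did not pass the test (adjusted p = 0.498, edgeR). It was -0.15 without control replicate 2 and -0.49 without control replicate 3. KRT5, the type II keratin of basal cells, had at most 3 counts in a library, and KRT14, its type I partner, likewise.

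The stress keratins, among which KRT16 and KRT17 respond to interleukin-17 in skin, were close to the limit of detection in both groups. KRT16 (chromosome 17, 41609778 to 41615899) had 14, 7 and 15 counts in control and 5, 4 and 14 counts in IL17D libraries. KRT17 (chromosome 17, 41619441 to 41624842) had 14, 2 and 3 counts in control and 17, 13 and 6 counts in IL17D libraries. Both overlapped between groups and their log2 fold changes had opposite signs, -0.63 for KRT16 (standard error 0.52, adjusted p = 0.719, edgeR) and 0.90 for KRT17 (standard error 0.56, adjusted p = 0.593, edgeR). With 1 library left out, KRT16 ran from -0.29 without IL17D replicate 2 to -1.46 without IL17D replicate 3, and KRT17 from 0.52 without control replicate 2 to 2.16 without control replicate 1, with no call. KRT6A, KRT6B and KRT6C had 4 counts or fewer in every library. The 5 stress keratins together had 31, 9 and 20 counts in control and 27, 19 and 25 counts in IL17D libraries. Other keratin rows held 27.6% of the 31-base stretches of KRT16 and 22.5% of those of KRT17. No difference in these rows was detectable at this depth.

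The rows of the KRT8 and KRT18 pseudogenes held few counts and no called change. Of 50 KRT8 pseudogenes, 21 had a count in some library and 5 were tested. KRT8P3 had 19.2 ± 1.92 CPM in control and 18.5 ± 1.07 CPM in IL17D libraries, and KRT8P12 had 10.7 ± 2.28 and 11.8 ± 2.41 CPM (SD, n = 3 each). KRT8P33, KRT8P46 and KRT8P39 were between 0.31 and 2.37 CPM in every library. The groups overlapped for all 5, and their log2 fold changes ran from -0.051 for KRT8P3 to 0.22 for KRT8P33, with adjusted p-values of 0.766 to 0.991 in edgeR. Of 67 KRT18 pseudogenes, 26 had a count and only KRT18P5 was tested, with 1, 9 and 13 counts in control and 16, 10 and 8 counts in IL17D libraries (adjusted p = 0.786, edgeR). KRT18P5 has 37.0% of its exonic bases in common with KLHL22 on the same strand. KRT8P33, KRT8P39 and KRT8P46 lie within the spans of CEP120, NUP107 and MANBA on the same strand, without shared exonic bases. KRT8P12 has 6.94% of its exonic bases in common with KPNA4 on the opposite strand. KRT8P3 has 44.1% of its 31-base stretches in common with KRT8. How much of these counts came from RNA of the pseudogenes was not tested.

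Counts were also summed over each family. The split of reads between parent and copies drops out only if reads with several matches were neither discarded nor counted repeatedly. That treatment was not given. KRT8 with its pseudogenes had 7794, 7670 and 7541 CPM in control and 7461, 7219 and 7457 CPM in IL17D libraries. The log2 ratio of the group means was -0.055. It follows KRT8 itself, which had 7633 of the 7668 CPM of the control mean. KRT18 with its pseudogenes had 3712, 3499 and 3549 CPM in control and 3566, 3559 and 3529 CPM in IL17D libraries, a log2 ratio of -0.014. The KRT8 pseudogenes alone had 34.9 ± 4.09 CPM in control and 36.1 ± 3.69 CPM (SD, n = 3 each) in IL17D libraries, and the KRT18 pseudogenes alone 2.60 ± 0.457 and 2.70 ± 0.396 CPM. These sums were not tested.

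The remaining 78 rows with a count were below the filter, with at most 44 counts over the 6 libraries. The highest were KRT20 with 44 counts, KRT12 with 39, and KRT19, KRT85 and KRT8P43 with 37 each. KRT12, a keratin of the cornea, had 3, 9 and 8 counts in control and 4, 7 and 8 counts in IL17D libraries. KRT85, a hair keratin, had 2, 6 and 4 counts in control and 6, 11 and 8 counts in IL17D libraries, and it holds 12.9% of the 31-base stretches of KRT81. No count was found for 106 rows, which were 86 pseudogenes, 11 type I genes, 8 type II genes and the antisense RNA of KRT73.

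Genes of the structures that keratin filaments belong to were compared in the same fit. Of 26 genes for desmosome and hemidesmosome proteins and other keratin anchors, 20 were tested, 1 rose and 0 fell, against 0.673% and 0.908% of all tested genes. At an unadjusted p under 0.05 there were 3 higher and 3 lower, against 5.59% and 5.99% of all tested genes, and the median log2 fold change was 0.015. DSP, which encodes desmoplakin, the protein that ties keratin filaments to the desmosome, had 205, 213 and 212 CPM in control and 231, 239 and 233 CPM in IL17D libraries. All IL17D libraries were above all controls (log2 fold change 0.16, standard error 0.037, adjusted p = 0.013, edgeR). That call was lost without control replicate 1 (adjusted p = 0.079), without IL17D replicate 2 (0.084) and without IL17D replicate 3 (0.057). PLEC, which encodes the cytolinker plectin (log2 fold change 0.085, adjusted p = 0.132), and PPL, which encodes periplakin (log2 fold change -0.34, adjusted p = 0.185), did not pass the test in edgeR.

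Of 15 genes for other intermediate filament proteins, 11 were tested, 1 rose and 1 fell, against 0.673% and 0.908% of all tested genes, with a median of -0.027. NEFL, the neurofilament light chain gene, rose from 16.9 ± 0.795 to 23.4 ± 0.800 CPM (SD, n = 3 each, log2 fold change 0.46, adjusted p = 0.0024, edgeR), and all 3 IL17D libraries lay above the controls. BFSP1, which encodes the lens filament protein filensin, fell from 23.2 ± 0.431 to 18.3 ± 0.553 CPM (SD, n = 3 each, log2 fold change -0.34, adjusted p = 0.037, edgeR). That call was lost whichever library was left out (adjusted p = 0.061 to 0.140) and in DESeq2's Wald test (0.073). VIM, which encodes vimentin, the filament protein of mesenchymal cells and of many cultured lines, had 375 ± 8.54 CPM in control and 368 ± 7.39 CPM in IL17D libraries (log2 fold change -0.027, adjusted p = 0.842, edgeR).

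Of 24 genes of the cornified envelope, the protein shell of terminally differentiated keratinocytes, 4 were tested and 0 were called in edgeR, with 0 at an unadjusted p under 0.05. The 3 with the smallest p, TCHH, TGM1 and FLG, were between 1.10 and 4.41 CPM in every library. Of 16 genes for epithelial transcription factors, 12 were tested, 0 rose and 2 fell, against 0.673% and 0.908% of all tested genes, with a median of -0.053. ELF3, an epithelial ETS factor, fell from 139 ± 6.13 to 114 ± 2.38 CPM (SD, n = 3 each, log2 fold change -0.28, adjusted p = 9.1e-05, edgeR), and was called under every alternative. FOXA2, a factor of lung and gut epithelium, fell from 42.3 ± 2.55 to 34.3 ± 2.36 CPM (SD, n = 3 each, log2 fold change -0.30, adjusted p = 0.016, edgeR), which was lost without control replicate 1 (0.137), IL17D replicate 1 (0.077) or IL17D replicate 3 (0.162). KLF4, an epidermal barrier factor, had a log2 fold change of 0.25 and did not pass (adjusted p = 0.192, edgeR). Of the 5 tested epithelial markers, 2 had a log2 fold change above 0 and 3 below 0. CEACAM6 rose (log2 fold change 0.23, adjusted p = 0.013) and CDH1, which encodes E-cadherin, fell (log2 fold change -0.28, adjusted p = 0.031) in edgeR. CLDN4 had a log2 fold change of -0.65, with all IL17D libraries below all controls, and did not pass (adjusted p = 0.113, edgeR). The CEACAM6 call was lost without control replicate 1 (adjusted p = 0.055), control replicate 2 (0.099) or IL17D replicate 2 (0.182). The CDH1 call was lost without control replicate 2 (adjusted p = 0.073), control replicate 3 (0.129), IL17D replicate 1 (0.260) or IL17D replicate 2 (0.075), and in DESeq2's Wald test (0.066).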

How the data were processed

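The authors deposited raw counts per gene for 6 libraries, which are whole numbers without normalization. Their processing notes name Bowtie2 and the build hg38, while the counting tool, the use of strand and the treatment of reads with several matches were not given in the sources used here. The coordinates of 203 of the 204 keratin rows equal those of GENCODE 29. Genes were filtered with filterByExpr in edgeR 4.0.16 under R 4.3.3, scaled by TMM and compared by quasi-likelihood tests (two-sided, without covariates), with Benjamini-Hochberg adjustment over 15754 genes. Standard errors were computed as the log2 fold change divided by the root of the F statistic, so they rest on the spread that edgeR shares among genes. Alternatives used DESeq2 1.42.0, limma 3.58.1, other filters, the replicate number as a block, and 5 libraries at a time. The fits were also run on simulated counts, with a filter of at least 1 count. Those counts were drawn with the spread that edgeR estimates, partly shared among genes. They cannot show how rows that vary far more than most, such as KRT87P, are handled. Stretches of 31 bases were counted over all GENCODE 29 transcripts on both strands, and sequences were aligned with MAFFT 7.526. The printed window is the first with the median number of varying positions among the ungapped windows of KRT86, KRT81, KRT83 and KRT87P. Some sequences are not reported here.

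Groups came from the sample titles. The members, lists and tests were chosen with earlier results of these data known. Values were given for every tested row, in full for the 8 most abundant, for those at an unadjusted p under 0.05 and for the 5 coding keratins of largest change, for the 5 untested rows with the highest totals, and for list genes that were called or otherwise had the 3 smallest p-values. VIM, PLEC, PPL, KLF4, EPCAM, CLDN4, PTPRC, the surfactant genes, KRT5, KRT6A, KRT6B, KRT6C, KRT13 and KRT14 fall outside that rule and were named after their values had been seen.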

Additional observations from a re-analysis of the deposited data

How the results depend on the processing

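Of 227 comparisons of a keratin row under an alternative, 200 kept their direction and side of the threshold, 12 lost a call (KRT87P and KRT4), 5 gained one (KRT86 and KRT8) and 10 changed sign, all 10 in rows that were not called and with 1 library left out. The number of keratin rows called, 2, was 1 with DESeq2's size factors, 1 with at least 10 counts in every library, 0 in DESeq2's Wald test (4 at an unadjusted p under 0.05), 2 in limma voom (KRT8 and KRT87P), 3 in edgeR when every gene with a count was tested (KRT86 with an adjusted p of 3.0e-05, KRT87P and KRT4), and 0 to 2 with 1 library left out. At least 1 count in every library gave 31 detected rows in place of 20, and at least 10 counts in every library gave 14. The 5 calls among keratin anchors, other filaments, cornified envelope genes and transcription factors, which do not include the cell type markers, became 2 to 5 with 1 library left out. With 1 library left out, log2 fold changes ran from -0.032 to 0.011 for KRT18, -0.11 to 0.0038 for KRT81, -0.13 to 0.017 for KRT8P3, -0.58 to 0.21 for KRT83, -0.21 to 0.52 for KRT8P46 and -0.28 to 0.41 for KRT8P39. IL17D was called throughout, at 10.05 to 10.44. The cause was not tested.

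Libraries with the same replicate number did not deviate together (correlations of 0.025, -0.026 and -0.025), so no sign of pairing by number was seen. With 3 libraries per group this check cannot exclude a weak pairing. With the replicate block, edgeR gave 3 keratin calls, KRT87P at 1.21 (adjusted p = 9.0e-13), KRT86 at 0.25 (adjusted p = 0.00015) and KRT4 at -0.72 (adjusted p = 0.024), on the log2 scale. The small p-values of KRT87P and KRT86 use a spread shared among genes and are not stronger support. For KRT87P, replicate 2 had 119 counts in control against 1132 in IL17D, and replicate 3 had 1077 against 1155. The median log2 fold change of all genes ran from -0.0045 to 0.0015 over all settings. Depth limits the rows near 1 CPM or below, whose standard errors were 0.43 to 0.56.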
